A study of Mus musculus with 153 samples.

Results

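The genes described are the matrix metalloproteinases (Mmp), the ADAMTS proteases (Adamts), the ADAMTS-like proteins (Adamtsl) and the tissue inhibitors of metalloproteinases (Timp) measured in mouse tail skin. They were chosen by name: every gene measured by a probe set with 1 gene symbol whose symbol begins with Mmp, Adamts or Timp and goes on with a number or an l, with the probe set of the highest mean taken for each gene. The rule found 46 of 18810 genes: 19 Mmp, 18 Adamts, 5 Adamtsl and 4 Timp genes. The rule uses names, and the mean level only to pick a probe set. All values are transcript levels on the deposited log2 scale, on which a difference of 1 is a doubling.

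Mmp proteases are zinc enzymes, most of them secreted as inactive precursors, that cut collagens, gelatin, proteoglycans and signalling proteins of the extracellular matrix. Adamts proteases include the aggrecan- and versican-cutting enzymes, the procollagen N-propeptidases and the protease that cuts von Willebrand factor, while Adamtsl proteins share their matrix-binding modules and lack the protease domain. Timp proteins bind the active site of Mmp proteases and of some Adamts and membrane ADAM proteases, so the amount of active enzyme in a tissue is not given by the transcript of the enzyme alone. In skin these genes are known from dermal fibroblasts, vessels, wound repair, inflammation and the hair cycle.

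The animals came from a backcross, with 1 array for each mouse. Male Mus spretus were crossed to Hras-/- FVB/N females, and females of the F1 generation were then backcrossed to Hras-/- or Hras-/+ males of FVB/N. The 151 mice used here carried the label Hras WT (52 females and 62 males) or HET (37; 18 females and 19 males), all untreated and 8 weeks old, with tail skin snap frozen. In such a cross the F1 mothers had the spretus copy as their only intact Hras. Every WT mouse would then carry it, and genotype and strain origin around Hras would not be independent. However, such a cross gives fewer WT than HET mice unless mice are selected, and the labels hold more WT than HET. The described cross and the labels were not reconciled, and the strain origin of Hras in the WT mice was not tested. Each mouse also has its own mixture of FVB/N and spretus alleles. The arrays lay on 3 plates of 49, 46 and 56 used arrays, and 2 WT males on plate 2 labelled as array outliers were left out.

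Skin markers were well above the lower end of the arrays: the 9 measured genes of the fibroblast list had mean levels from 7.41 to 11.2, and the 8 of the basal keratinocyte list from 7.45 to 11.8. Genes of other tail tissues were measured too, with means from 3.38 (Dmp1) to 8.43 (Sox9) and a median of 5.17 for 11 cartilage, bone and tendon genes. Sox9 is also in the hair follicle stem cell list used here, and no detection call was made. The genotype labels were not checked against the targeted transcript. Tail skin is a mixture of cell types, and fewer cells of a type and less RNA per cell cannot be told apart.

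Most of the family lay above the lower end of the arrays, about as often as all genes did. Of the 46 genes, 39 had a mean above 3.125, the median over arrays of the lower quartile of all probe sets, as had 79.7% of all genes. This line is no detection threshold. All Timp and Adamtsl genes lay above this line, and 17 of 18 Adamts and 13 of 19 Mmp genes. The 7 below it were Adamts16, Mmp1a, Mmp1b, Mmp7, Mmp8, Mmp10 and Mmp20, and their levels have little to say beyond being near the lower end. Levels of different genes come from different probes, and the text compares none of them between genes.

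Most of the dim genes lie in the Mmp gene group on chromosome 9. Described from it are the interstitial collagenase genes Mmp1a and Mmp1b, the neutrophil collagenase gene Mmp8, the stromelysin genes Mmp3 and Mmp10, the macrophage elastase gene Mmp12, the matrilysin gene Mmp7 and the enamelysin gene Mmp20. Of these 8 genes only Mmp3 and Mmp12 had means above the line. The upstream sequences of the group are shown because most of them share a motif that was not found for the other genes searched. RefSeq promoters (GRCm38.p6) matched 31 of the 46 genes, including all 8 of this group. Mmp2, Mmp9 and Mmp19 were among those without a match. The AP-1 motif, which binds Fos and Jun proteins, was searched on both strands as TGANTCA in the 250 bases before each gene's start. It was present for 7 of the 8 genes of the group and for 0 of the 23 others matched. Over all 27025 genes searched the share was 7.82%. The stretches run 5′ to 3′ on the gene's strand, with the match in capitals.
Mmp3 (chr9:7445756-7445802, plus strand): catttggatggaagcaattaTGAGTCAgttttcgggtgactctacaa
Mmp10 (chr9:7502259-7502305, plus strand): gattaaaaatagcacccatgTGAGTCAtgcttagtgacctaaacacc
Mmp12 (chr9:7347310-7347356, plus strand): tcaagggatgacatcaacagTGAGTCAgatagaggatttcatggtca
Mmp1a (chr9:7464048-7464094, plus strand): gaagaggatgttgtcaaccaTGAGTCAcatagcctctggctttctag
Mmp1b (chr9:7388093-7388139, minus strand): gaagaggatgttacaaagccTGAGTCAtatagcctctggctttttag
Mmp7 (chr9:7692007-7692053, plus strand): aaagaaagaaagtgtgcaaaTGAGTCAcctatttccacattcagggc
Mmp20 (chr9:7628116-7628162, plus strand): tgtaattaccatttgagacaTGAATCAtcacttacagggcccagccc

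In these stretches 6 of the 7 matches read the same and that of Mmp20 differs from them. The TATAAA motif of the TATA box was present on either strand for 6 of the 8 genes of the group and for 3 of the 23 others. Over all genes searched the share was 14.3%. The GC box motif GGGCGG, which binds Sp1, was present for 0 of the 8 and for 17 of the 23, against 35.4% of all genes searched. The Timp2 promoter is an example of a match. It reads, with the match in capitals:
Timp2 (chr11:118355423-118355468, minus strand): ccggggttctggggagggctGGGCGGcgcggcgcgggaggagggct

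These matches describe letters in a window and show no binding. Of the 28 pairs among the 8 genes of the group, 1 passed the permutation test used for gene pairs, and the median correlation was 0.06. Since 6 of the 8 genes lie near the lower end of the scale, little can be read from that count.

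The spread between mice was the largest feature of the data. It was measured as the SD of each gene's residuals after genotype, sex and plate. Mmp9, which encodes gelatinase B, a protease of neutrophils, macrophages and osteoclasts, had an SD of 1.10, at percentile 99.8 of all genes. Its level ran from 3.23 to 9.20 with a median of 4.84, a 62.6-fold range. Mmp3, which encodes stromelysin-1, had an SD of 0.74 and ran from 3.30 to 8.22 with a median of 4.64, a 30.4-fold range. Timp1, an X-linked inhibitor gene that responds to inflammation, had an SD of 0.62 and ran from 3.80 to 8.46 with a median of 5.56, a 25.3-fold range. Mmp3 and Timp1 have a long upper tail: the quartiles lay close to the median, at 4.31 and 4.97 for Mmp3 and at 5.31 and 5.92 for Timp1. Mmp9 was spread more broadly, with quartiles of 4.25 and 5.76.

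Smaller but still wide spreads were found for Adamtsl3 (SD 0.57), Timp4 (0.55), Mmp19 (0.40), Mmp2 (0.39) and Adamts5 (0.38). Adamtsl3, a matrix protein related to punctin, ran from 3.73 to 6.66 with a median of 4.86, and Timp4 from 2.88 to 5.67 with a median of 3.80. Mmp19 ran from 4.11 to 6.82 with a median of 4.97. Mmp2, which encodes gelatinase A of stromal cells, ran from 8.82 to 11.17 with a median of 10.27. Adamts5, an aggrecanase and versicanase gene, ran from 6.23 to 7.99 with a median of 7.07. Timp2 and Timp3 were narrow by comparison, from 8.56 to 9.93 and from 8.74 to 10.14. Mmp14, the membrane protease that activates the Mmp2 precursor together with Timp2, ran from 7.81 to 9.21 with a median of 8.43. Adamts9, a versicanase gene, ran from 6.94 to 8.18 with a median of 7.72.

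**Figure D1:**
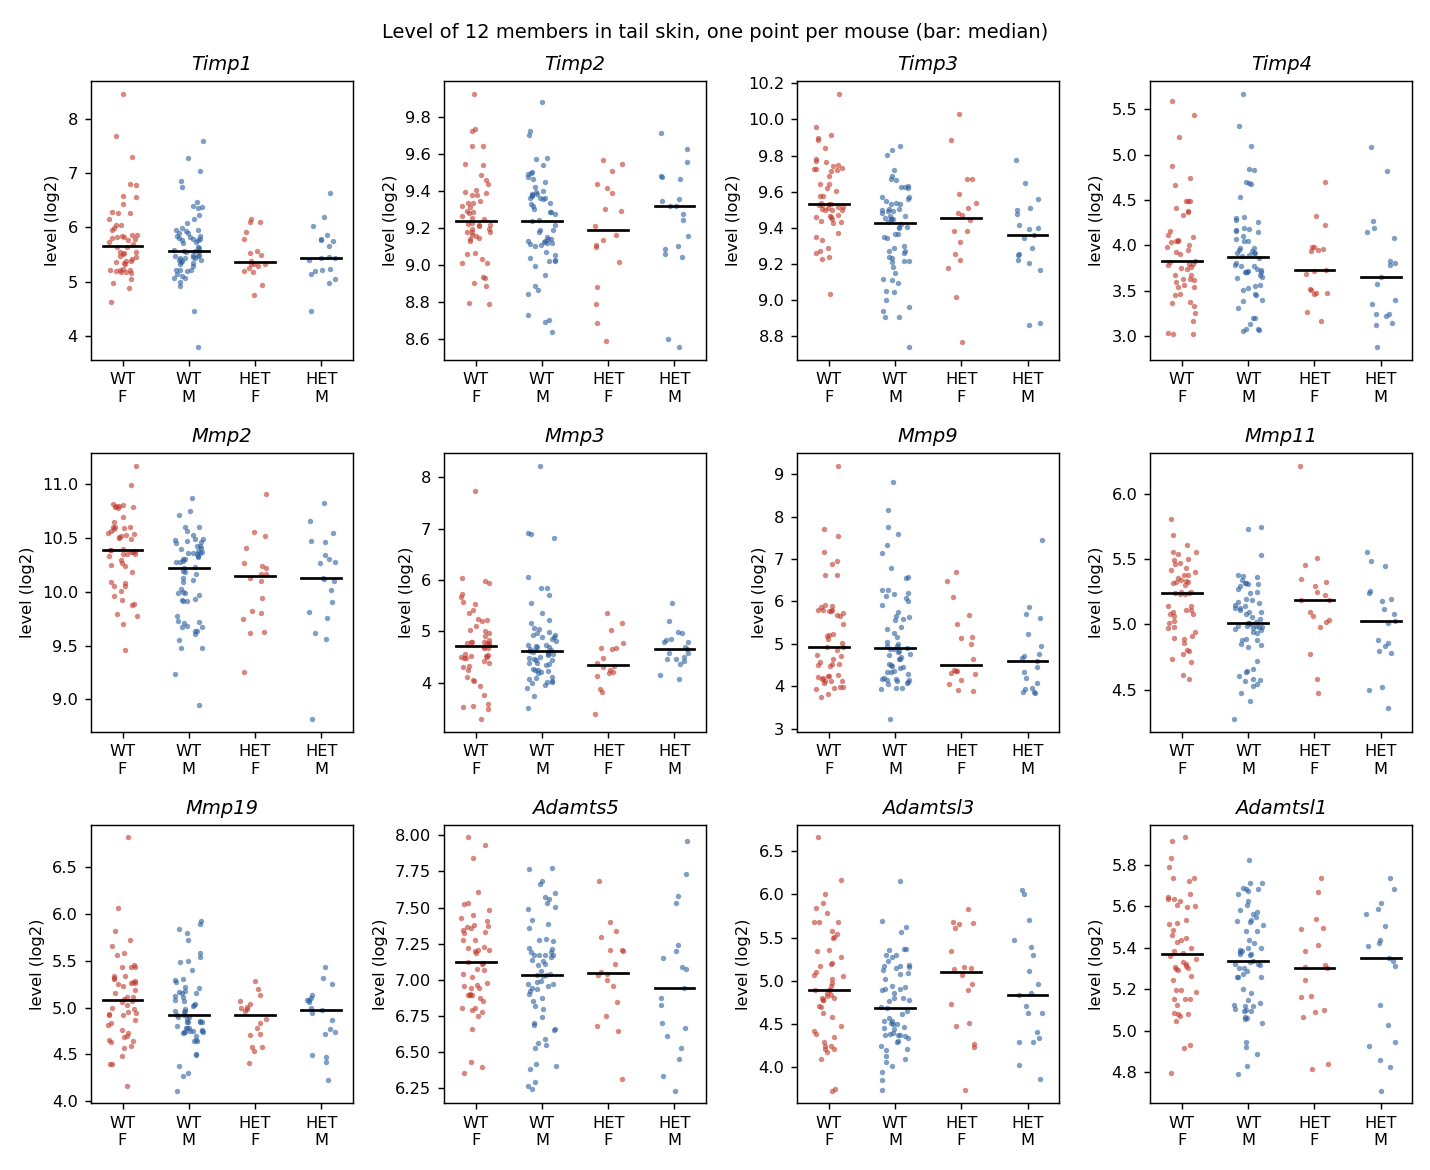
Level (log2) of 12 of the genes in each of 151 mice, by genotype (WT, HET) and sex (F, M), with a bar at the group median. Mmp9, Mmp3 and Timp1 reach highest values of 9.20, 8.22 and 8.46, and in every panel the groups overlap.

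Of the 46 genes, 6 (13%) had at least 3 mice that were 1 log2 unit or more above the gene's median, against 5.23% of all genes. They were Mmp9 with 33 mice, Mmp3 with 14, Timp1 with 13, Timp4 with 11, Adamtsl3 with 7 and Mmp12 with 3. The mice with high Mmp3, Mmp9 and Timp1 were in part the same: 9 mice were high for Mmp3 and Mmp9, 8 for Mmp3 and Timp1, and 7 for Mmp9 and Timp1. Timp4 and Adamtsl3 shared 4 mice, while Timp4 shared 1 with Timp1 and 1 with Mmp3. Plates were unequal for some genes: all 3 mice with high Mmp12 were on plate 1, and the 13 with high Timp1 were split 7, 0 and 6 over plates 1, 2 and 3. Of all 151 mice 37 were HET. Of the 14 mice with high Mmp3, 0 were HET, as were 1 of the 13 with high Timp1 and 5 of the 33 with high Mmp9. These mice were picked by their level, so no test was made of them.

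Mice with high Mmp9 were often high for the bone marker Ibsp. The share high for S100a8 or S100a9, pooled, was nearer that of all mice, but less so for S100a9 taken singly. These markers were chosen after their values were seen. Of the 33, 26 (78.8%) were also at least 1 log2 unit above the median for Ibsp, which encodes bone sialoprotein, against 49 of all 151 mice (32.5%). For S100a8 or S100a9, which encode the neutrophil calprotectin subunits, the number was 14 (42.4%), against 51 of 151 (33.8%). Taken singly, S100a9 was high in 14 of the 33 and 38 of the 151, and S100a8 in 13 and 48. The inflammatory genes Il1b, Cxcl2 and Clec4e were high in 8, 7 and 6 of the 33, and in 14, 17 and 11 of the 151. Over all mice Mmp9 correlated with S100a8 at r = 0.129 and with S100a9 at 0.217, against 0.741 with Ibsp. Genes of the neutrophil list ran from -0.015 (Mpo) to 0.348 (Csf3r). Those of the macrophage and dendritic cell list ran from -0.287 (Cd207) to 0.415 (Mrc1). Of the 33 mice, 7 were high both for Ibsp and for S100a8 or S100a9. Neither applied to 0 of the 33, against 62 of all 151 (41.1%). Mmp9 was highest in a WT female on plate 3, at 9.20, with Ibsp at 3.81, Mmp3 at 7.73, Timp1 at 8.46 and S100a8 at 7.14. In the next mouse, a WT male on plate 1 at 8.80, Ibsp was 8.36, Mmp3 3.90 and S100a8 4.12. A WT male on plate 3 at 8.16 again had low Ibsp (3.50) and high Mmp3 (6.89) and S100a8 (10.24). Over all mice the medians were 4.11 for Ibsp and 4.46 for S100a8, so the first and the third of these mice were at or below the median for Ibsp and well above it for S100a8, and the second the reverse.

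The Hras genotype comparison asks whether loss of 1 Hras copy goes with a different level of these genes. With limma, 0 of 46 genes passed an adjusted p of 0.05 (Benjamini-Hochberg over 18810 genes), and 0 passed without the mean-variance trend. Over all genes 21 passed (0.112%), 6 of them higher in HET mice (0.0319%) and 15 lower (0.0797%). At an unadjusted p under 0.05 there were 5 of the 46 (10.9%) against 6.57% of all genes. The median difference over the 46, HET minus WT, was -0.02.

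The smallest p belonged to Adamts10, which encodes a fibrillin-binding protein. Its level ran from 5.31 over a median of 5.71 to 6.08 in HET mice and from 4.99 over 5.61 to 6.10 in WT mice, so the groups overlapped. The difference was 0.12 ± 0.04 (SE; limma adjusted p = 0.547), with 0.07, 0.12 and 0.16 on plates 1, 2 and 3. Mmp10 differed by -0.12 ± 0.05 and Timp1 by -0.24 ± 0.12 (limma adjusted p = 0.738 for both). Timp1 ran from 4.46 over 5.44 to 6.64 in HET mice and from 3.80 over 5.64 to 8.46 in WT mice, so the groups overlapped. Its within-plate differences were -0.16, 0.02 and -0.47, so the direction did not hold on plate 2. The other inhibitors differed by -0.02 ± 0.05 (Timp2), -0.07 ± 0.04 (Timp3) and -0.16 ± 0.10 (Timp4), with limma adjusted p from 0.837 to 0.972. On plate 2 alone these were 0.12, 0.01 and 0.01. Mmp9 differed by -0.38 ± 0.21, from 3.83 over 4.59 to 7.44 in HET mice and from 3.23 over 4.92 to 9.20 in WT mice (limma adjusted p = 0.792), with -0.41, -0.20 and -0.50 on the plates. Mmp3 differed by -0.22 ± 0.14 (limma adjusted p = 0.837). Of the 3 genes on chromosome 7, which carries Hras, Mmp21 differed by 0.08 ± 0.05, Adamtsl3 by 0.11 ± 0.11 and Adamts17 by -0.01 ± 0.04. None of these genotype differences passed the test.

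Between the sexes 3 of the 46 genes changed, all lower in males: Timp3, Mmp11 and Mmp2. That is 6.52% of the genes described, where 3.62% of all genes passed, 207 higher in males (1.1%) and 473 lower (2.51%). At an unadjusted p under 0.05 there were 7 of the 46 (15.2%), against 16.4% of all genes. The differences were small beside the spread, and males and females overlapped for each gene.

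Timp3 encodes the inhibitor that is bound to the matrix and blocks Mmp, Adamts and ADAM proteases. Its level ran from 8.74 over a median of 9.40 to 9.85 in 81 males and from 8.77 over 9.51 to 10.14 in 70 females. The difference, male minus female, was -0.18 ± 0.04 (SE; limma adjusted p = 0.00108), a 1.13-fold lower level, and it was -0.15, -0.22 and -0.17 on plates 1, 2 and 3. Mmp11, which encodes stromelysin-3 of stromal cells, ran from 4.28 over 5.01 to 5.75 in males and from 4.47 over 5.23 to 6.22 in females. The difference was -0.18 ± 0.05 (limma adjusted p = 0.0221), with -0.28, -0.13 and -0.14 on the 3 plates. Mmp2 ran from 8.82 over 10.22 to 10.87 in males and from 9.25 over 10.35 to 11.17 in females. The difference was -0.20 ± 0.06 (limma adjusted p = 0.0431), with -0.08, -0.25 and -0.27 on the 3 plates.

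The call for Mmp2 was the least stable of these. Its adjusted p was 0.0641 with each array centred on its median, 0.0575 after quantile normalization and 0.083 without a plate term. In WT mice alone the difference of Mmp2 was -0.26 ± 0.07 and in HET mice alone -0.03 ± 0.12, and the test of that difference between genotypes gave 0.27 ± 0.14 (limma p = 0.0664, adjusted p = 0.998). Mmp11 had an adjusted p of 0.0574 in WT mice alone, and with 1 plate or HET mice alone 0 of the 46 genes passed. The other inhibitors differed between the sexes by -0.08 ± 0.10 (Timp1), -0.01 ± 0.04 (Timp2) and -0.04 ± 0.09 (Timp4), with limma adjusted p from 0.777 to 0.951.

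**Figure D2:**
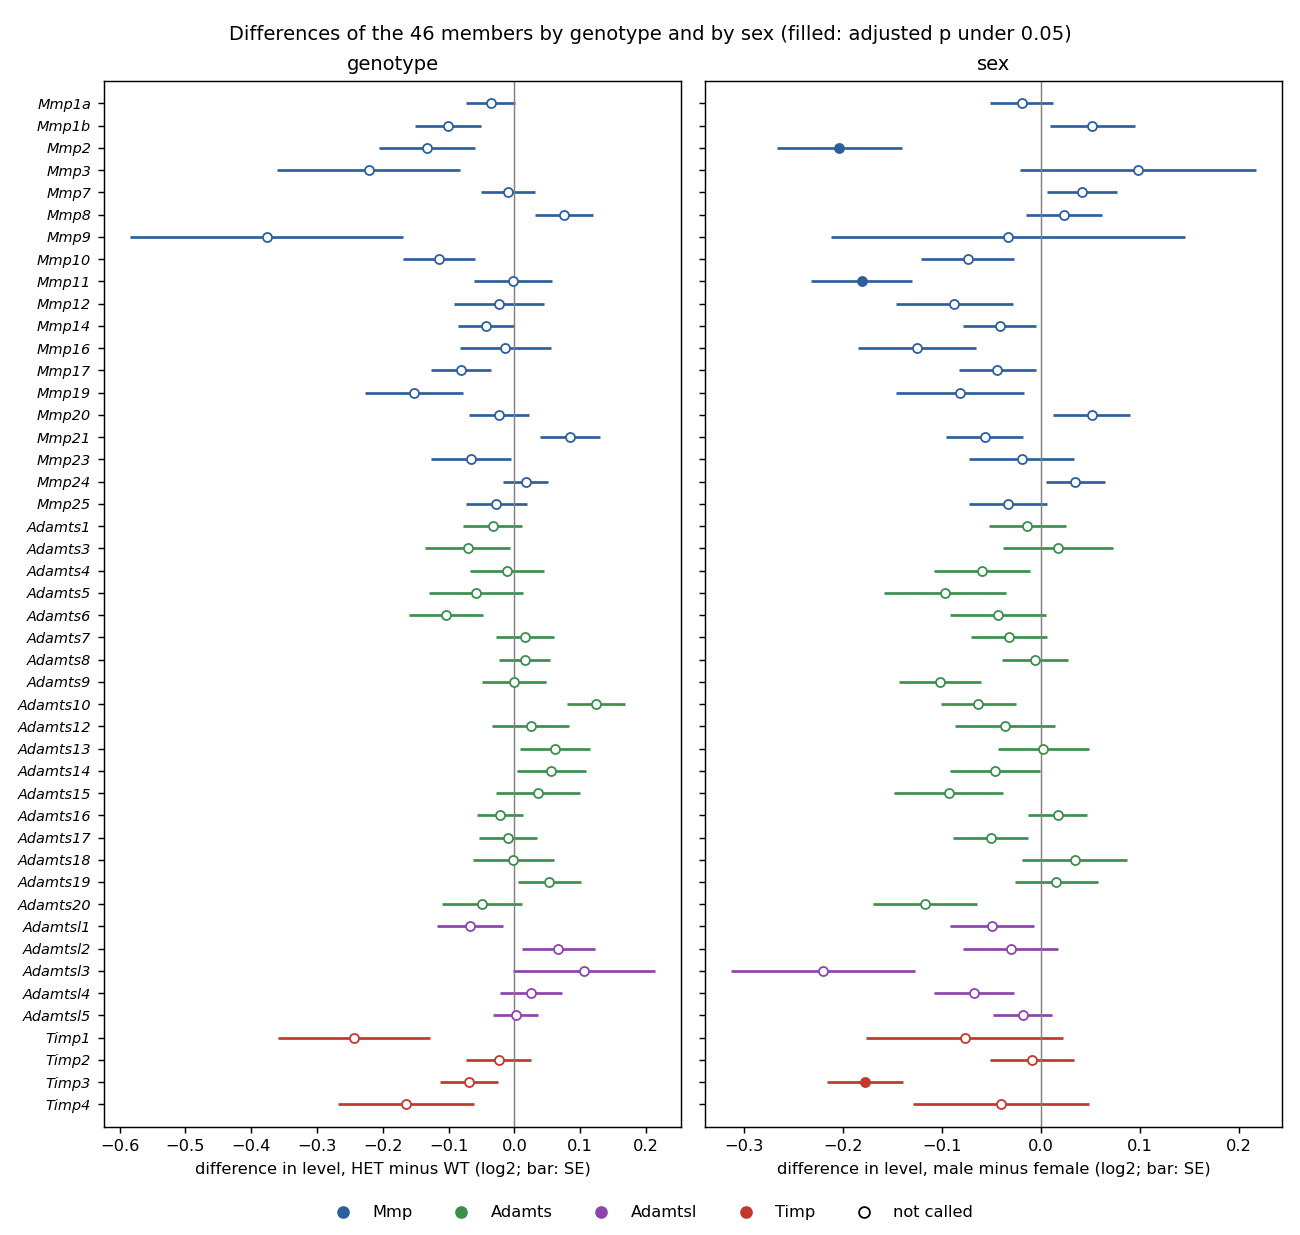
Difference in level (log2) of the 46 genes with its SE, HET minus WT on the left and male minus female on the right; filled points passed the adjusted p of 0.05. No point is filled for genotype, and Timp3 (-0.18), Mmp11 (-0.18) and Mmp2 (-0.20) are filled for sex.

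Fibroblast transcripts moved between the sexes in both directions beside these genes. Of the 9 fibroblast list genes 4 passed: Col1a1 (0.24 ± 0.06), Col1a2 (0.20 ± 0.06) and Col3a1 (0.26 ± 0.05), the fibrillar collagen genes, were higher in males and Lum (-0.28 ± 0.09), the lumican gene, was lower. The mean level of the list overlapped, from 8.29 over 9.09 to 9.98 in females and from 8.22 over 9.10 to 9.66 in males. Other lists had genes lower in males too: 4 of 8 mast cell genes (Cpa3, Kit, Mcpt4 and Ms4a2, by -0.33 to -0.19) and 3 of 7 hair follicle stem cell genes (Cd34, Lgr5 and Lhx2). The part of these cell types in the sex differences of Timp3, Mmp11 and Mmp2 was not tested. Among 23 matrix proteins that these proteases can cut, 5 passed for sex, 4 higher in males and Fn1, the fibronectin gene, lower (-0.29 ± 0.09). Among 10 other protease inhibitors measured, A2m, the alpha-2-macroglobulin gene, was lower in males (-0.36 ± 0.10) and Serpinb2 higher (0.14 ± 0.04). In each of 4 further lists 0 genes passed: 15 of procollagen and fibrillin assembly, 8 of the plasminogen system and prohormone convertases, 9 membrane ADAM proteases and 17 upstream signals. For genotype, 0 genes of the 6 lists passed.

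Plate did not separate the 46 genes: 0 passed in limma's F test over the 3 plates, and 0 were under an unadjusted p of 0.05. Over all genes 4 passed (0.0213%) and 0.808% were under an unadjusted p of 0.05, and no source used here says whether plates were adjusted before deposit. For genotype by sex, genotype by plate and sex by plate, 0 of the 46 and 0 of all genes passed in limma (0% for each). At an unadjusted p under 0.05 there were 1, 5 and 1 of the 46 (2.17%, 10.9% and 2.17%), against 4.76%, 9.07% and 5.74% of all genes. The smallest of these p-values were 0.0262 for Mmp17 (genotype by sex), 0.0216 for Mmp14 (genotype by plate) and 0.0365 for Mmp3 (sex by plate).

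Across mice, by contrast, many of the genes varied together. Correlations were computed over 151 mice on residuals after genotype, sex and plate, with a two-sided permutation test of 100000 draws, adjusted over all 1035 pairs. There were 247 pairs that passed (23.9%), 218 positive and 29 negative, at a correlation of 0.205 or more in size. Of all pairs of the 18810 genes, 8.88% had a correlation of that size or more. Of the pairs among the 39 genes above the line, 236 of 741 passed, and among the 7 below it 0 of 21. Spearman correlation passed 233 pairs, 213 of them with the same sign in both, and 234 of the 247 had 1 sign on all plates. The points are mice that share their array's normalization, and with each array centred 225 pairs passed, 195 of them among the 247.

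Mmp2 and Timp2 formed the tightest pair, with r = 0.822 and rho = 0.781, and r = 0.773, 0.846 and 0.846 on plates 1, 2 and 3. The 8 most positive pairs had permutation p = 1e-05 for r and for rho, the smallest that the draws can give, with adjusted p = 9.76e-05 and 0.000111. Mmp2 and Timp2 gave r = 0.804 when the pair of mice with the most extreme Mmp2 was left out. Mmp19, a protease gene of stromal and myeloid cells, paired with Timp1 (r = 0.701, rho = 0.592, and 0.633 without the 2 mice). Adamts5 was in 5 of the 8, with Timp2 (0.699), Mmp2 (0.693), Adamtsl3 (0.683), Mmp14 (0.659) and Adamts12 (0.624), and rho from 0.626 to 0.684. Adamtsl3 and Timp3 completed them (r = 0.640, rho = 0.657). Leaving out the 2 mice gave r from 0.593 to 0.687 for these 6 pairs. The inhibitors also varied with each other: Timp2 with Timp3 (0.595), Timp1 (0.483) and Timp4 (0.472), and Timp3 with Timp4 (0.371). Their rho were 0.623, 0.489, 0.468 and 0.360, and the adjusted permutation p was at most 0.000177. Timp1 and Timp3 did not pass by Pearson correlation (r = 0.143, adjusted permutation p = 0.218) and passed by rank (rho = 0.280, adjusted permutation p = 0.00371), with 0.378, 0.381 and -0.09 on the 3 plates.

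**Figure D3:**
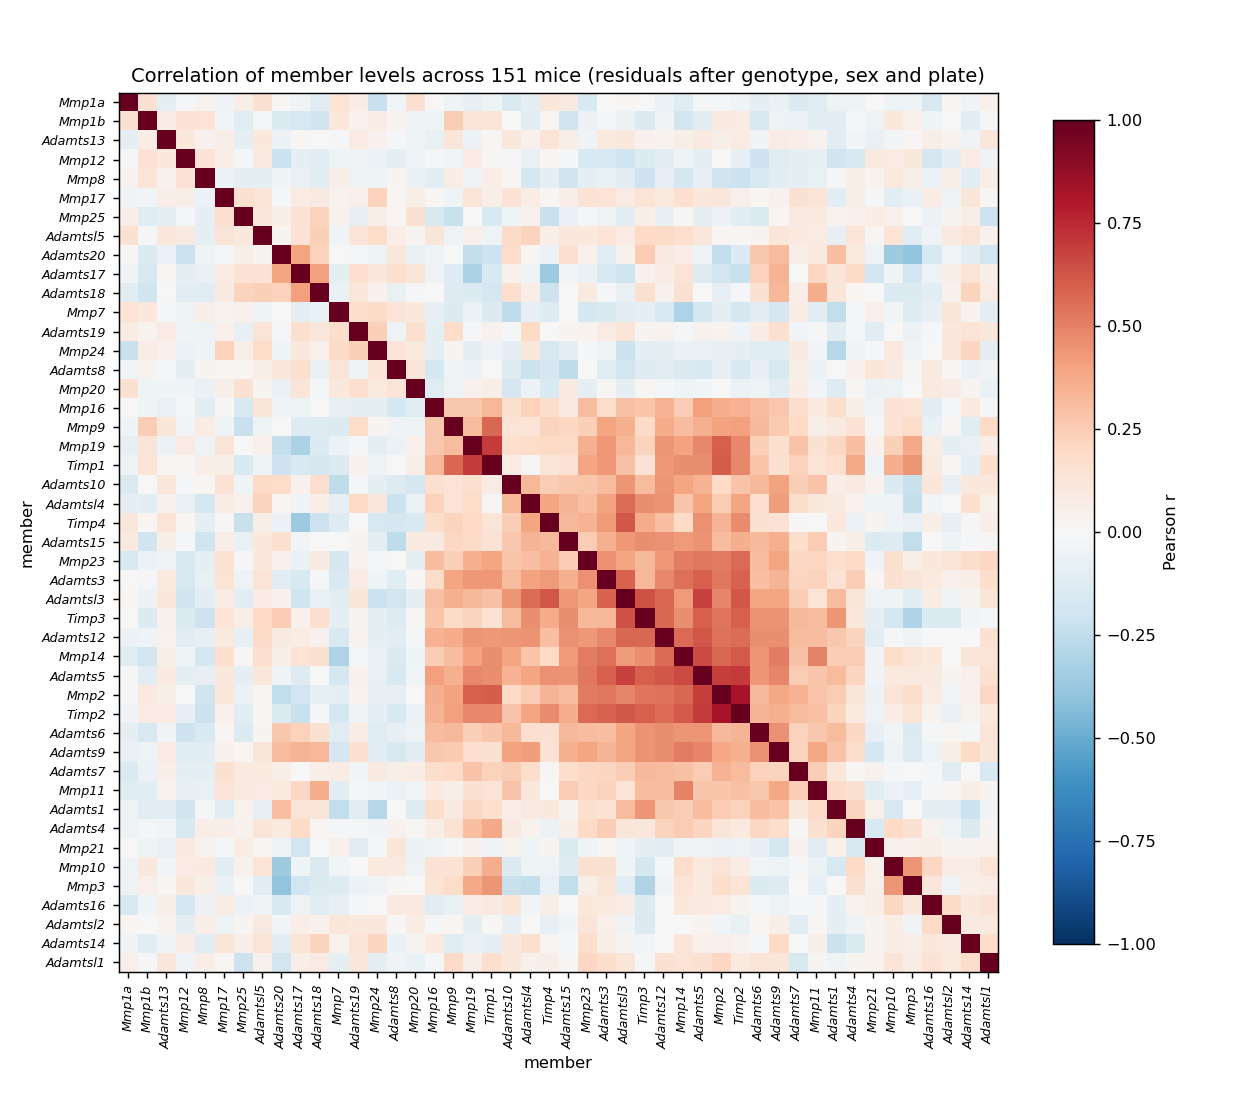
Pearson correlation of the residual levels of the 46 genes across 151 mice, with genes ordered by average-linkage clustering on 1 minus r. The darkest off-diagonal cell is Mmp2 with Timp2 (0.822), inside a block that includes Adamts5, Adamts12, Adamtsl3, Mmp14 and Timp3; Adamts20 with Mmp3 is the most negative (-0.395).

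The negative pairs were weaker. Adamts20, the protease gene of the belted pigment mutant, fell as Mmp3 rose (r = -0.395, rho = -0.379, and -0.410 without 2 mice) and as Mmp10 rose (r = -0.352, rho = -0.289). Adamts17, a gene of fibrillin biology, opposed Timp4 (r = -0.367, rho = -0.394) and Mmp19 (r = -0.320, rho = -0.297). Their permutation p-values for r ran from 1e-05 to 8e-05 and the adjusted values from 9.76e-05 to 0.000596. All 4 kept their sign on each plate, and the plate 1 values for Adamts20 were the nearest to 0, at -0.204 with Mmp3 and -0.183 with Mmp10. Without the 2 mice the last 3 were -0.349, -0.387 and -0.290. Adamts17 has 5 probe sets, and the others correlated with the one used at 0.119 to 0.681. With the mean of all probe sets of a gene, Adamts17 gave r = -0.307 with Timp4 (adjusted permutation p = 0.00102). With Mmp19 it gave -0.199 and did not pass (adjusted permutation p = 0.0554). On chromosome 9 the pair that passed was Mmp3 with Mmp10 (r = 0.444), whose rho was 0.164 (adjusted permutation p = 0.151) and whose r was 0.285 without 2 mice, so it rests on few mice. The same is seen for Mmp3 with Timp1, at r = 0.442 and rho = 0.147 (adjusted permutation p = 0.213), with r = 0.310 without 2 mice.

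**Figure D4:**
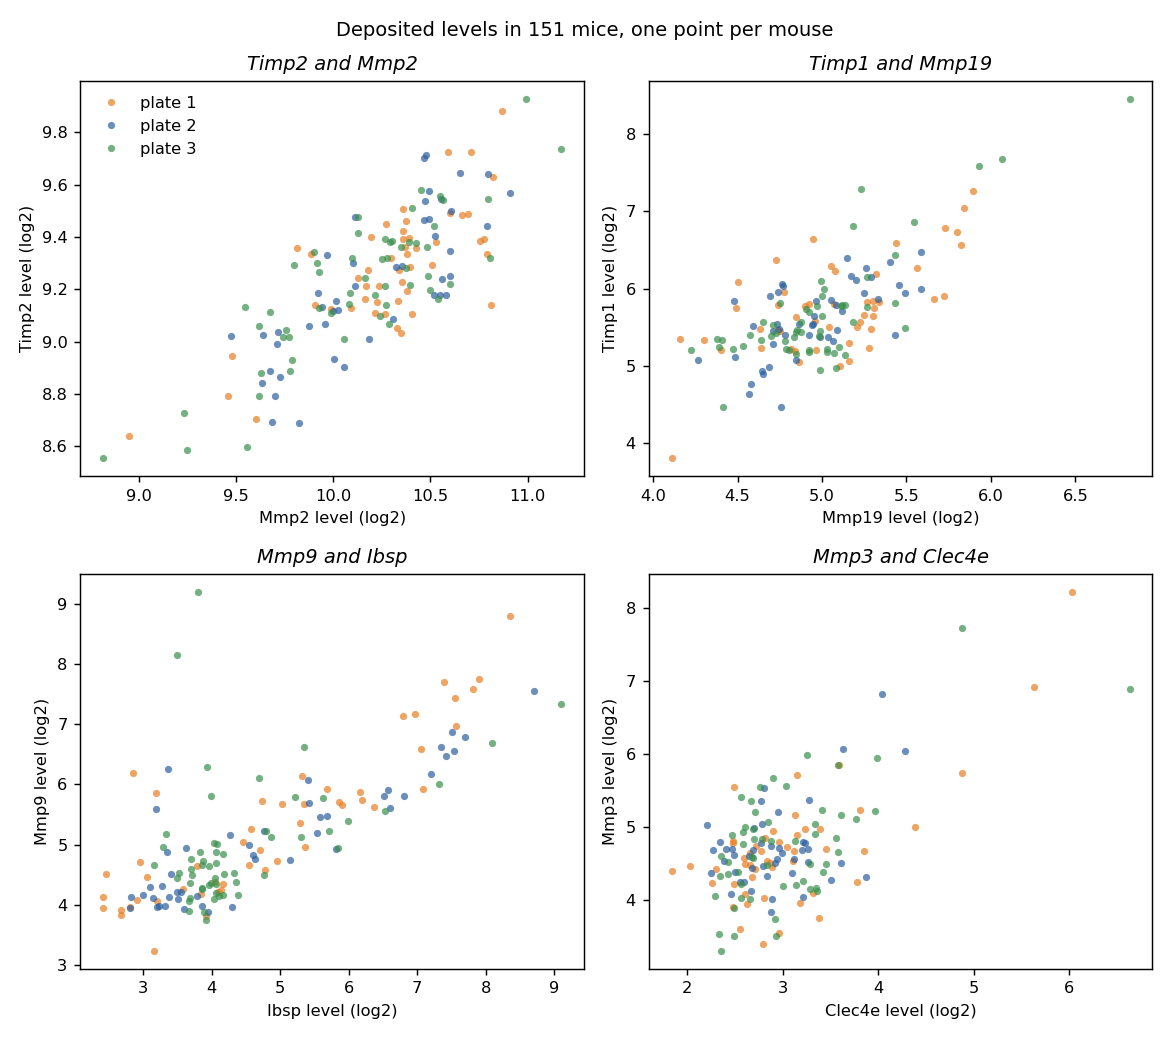
Deposited levels (log2) of 4 gene pairs in 151 mice, coloured by plate: Timp2 against Mmp2, Timp1 against Mmp19, Mmp9 against Ibsp and Mmp3 against Clec4e. Mmp9 rises with Ibsp except in mice such as those at 9.20 and 8.16, and Mmp3 exceeds 6 in 7 mice, all above the Clec4e median of 2.86. Clec4e was picked by its correlation with Mmp3 in these same mice.

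To see which cell types the levels went with, each gene was set against 19 cell-type marker lists, each scored as the mean of its genes' standardised residuals. Of 874 gene and list pairs, 320 passed (36.6%; permutation test adjusted over 874), 252 positive and 68 negative, at 0.191 or more in size. Of all pairs of a gene and a list, 20.7% reached that size, so a good part of this is shared with the transcriptome at large. The marker values stand beside the gene values here, and their part in them was not tested. All list correlations quoted next had permutation p = 1e-05 and adjusted p = 6.1e-05 unless another value is given.

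Stromal genes went with fibroblast, vessel and macrophage markers. Mmp2 had the highest correlation of all with the fibroblast list (r = 0.859, rho = 0.817, and 0.827, 0.883 and 0.868 on the plates), followed by Timp2 (r = 0.836, rho = 0.811). Mmp2 also led the macrophage and dendritic cell list (0.712) and Timp2 the mast cell (0.579) and adipocyte (0.518) lists. Adamts12 led the endothelium list (r = 0.756, rho = 0.755) and the dermal papilla list (0.496), and Adamtsl3 the pericyte and smooth muscle (0.718) and skeletal muscle (0.576) lists. Adamtsl4, mutated in lens dislocation, led the nerve and Schwann cell list (0.449), of which 4 of 8 genes were measured. Without the 2 mice most extreme in list score, these values lay between 0.448 and 0.841.

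Most of the genes that passed with keratinocyte markers were opposed to them. For the differentiated keratinocyte list 19 of 20 genes that passed were negative, led by Timp3 (r = -0.454, rho = -0.453, with -0.235, -0.635 and -0.481 on the plates) and Adamts5 (r = -0.454, rho = -0.457). Of all genes, 15% were negative with this list at 0.191 or more in size and 13.4% positive, against 41.3% and 2.17% of the 46. With each array centred, 19 of the 46 were negative (41.3%) and 8 positive (17.4%) at that size, against 9.26% and 32.2% of all genes. For the basal keratinocyte list 12 of 15 were negative, led by Mmp2 (r = -0.305, rho = -0.257, adjusted p = 0.000497), with -0.707 on plate 2 and -0.151 and -0.110 on plates 1 and 3. Of all genes, 10.6% were negative with it and 13.3% positive, against 26.1% and 6.52% of the 46. After quantile normalization 7 of the 46 were negative (15.2%) and 2 positive (4.35%) at that size, against 9.59% and 13% of all genes. With each array centred 16 were negative (34.8%) and 4 positive (8.7%), against 9.11% and 22.9% of all genes. Adamts20 led the list of hair shaft and root sheath genes (r = 0.606, rho = 0.584) and the hair follicle stem cell list (0.485). It also had the largest negative value with the T lymphocyte list (-0.360, adjusted p = 0.000113), at -0.616 on plate 1 and -0.188 and -0.239 on plates 2 and 3. Only 3 of the 6 measured genes of that list had a mean above the line. Timp4 led the sebaceous gland list (0.319, adjusted p = 0.000263) and Timp1 the melanocyte list (-0.237, adjusted p = 0.0126), the latter with 0.10 on plate 1.

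Mmp9 led the cartilage, bone and tendon list (r = 0.676, rho = 0.648) and the osteoclast list (r = 0.626, rho = 0.511). The first was 0.814, 0.650 and 0.482 on plates 1, 2 and 3. Single genes of that list ran from r = 0.741 (Ibsp), 0.701 (Col2a1) and 0.649 (Acan) to 0.148 (Bglap), 0.142 (Scx) and -0.203 (Sox9). In the osteoclast list r was 0.56 for Ctsk, 0.438 for Atp6v0d2, 0.428 for Acp5, 0.267 for Dcstamp and 0.169 for Ocstamp. It was 0.072 for Calcr, whose mean lay below the line. Mmp3 led the neutrophil list at r = 0.565, but its rho was 0.318, and r was 0.493 without 2 mice. Single genes of that list ran from r = 0.536 (Retnlg) and 0.534 (Csf3r) to 0.033 (Elane) and 0.021 (Mpo) with Mmp3. The means of Retnlg and Elane lay below the line. Timp1 went with the macrophage and dendritic cell list (r = 0.654, rho = 0.584) and the fibroblast list (r = 0.652, rho = 0.634), and with the neutrophil list at r = 0.490 and rho = 0.254. Single macrophage and dendritic cell genes ran from 0.656 (Mrc1) to 0.0215 (Itgax) and -0.322 (Cd207) with Timp1. Single neutrophil genes ran from 0.537 (Csf3r) to 0.002 (Elane) and 0.001 (Mpo). Timp3 opposed the neutrophil list (r = -0.306, adjusted p = 0.000537), with -0.03 on plate 1 and -0.394 and -0.434 on plates 2 and 3.

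The levels of several of these genes went with a wide set of other genes. By limma with the gene's level as a covariate, 28.6% of all other genes varied with Timp2, 26.7% with Adamtsl3, 26.2% with Mmp2, 24.7% with Timp3, 23.9% with Timp4, 15.9% with Timp1, 11.2% with Mmp9 and 2.78% with Mmp3. The order depends on the scaling: with each array centred the shares were 44.2% for Adamtsl3, over 1.5 times its 26.7%, 36.8% for Timp2, 36.2% for Timp3 and 33.6% for Mmp2. Adamts5 had 25.2% on the deposited scale and 41.1% with arrays centred. Of the other 45 genes described, 23, 21, 22, 22, 14, 16, 14 and 5 passed in the same fits.

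The genes most correlated with each inhibitor differ. For Timp1 they were Lbp, the lipopolysaccharide-binding protein gene (r = 0.797, rho = 0.783), Msr1, a macrophage scavenger receptor gene (0.777), and Ddah1 (0.761). For Timp2 they were Colec12, a scavenger receptor gene (r = 0.826), Mmp2 and Dcn, the decorin gene (0.815). For Timp3 they were Slit3, which encodes a guidance ligand (r = 0.748), Gprc5b (0.732) and Cped1 (0.722). For Timp4 they were Fmo1 (r = 0.702), Galnt15 (0.679) and Ace, which encodes angiotensin-converting enzyme (0.656). Limma adjusted p-values were between 9.3e-35 and 3.5e-16, rho lay between 0.640 and 0.821, and r after leaving out the 2 mice with the most extreme inhibitor level between 0.648 and 0.814.

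Among the proteases, Mmp9 was most like Alpl, the alkaline phosphatase gene of mineralising tissue (r = 0.756, rho = 0.700), Ibsp (r = 0.741, rho = 0.748) and Col2a1, the cartilage collagen gene (r = 0.701, rho = 0.717). Alpl was a gene of the dermal papilla list here. With Ibsp the plates gave 0.869, 0.869 and 0.420 for Mmp9. The mice with Mmp9 at 9.20 and 8.16 lie on plate 3, and r was 0.785 without 2 mice. Mmp3 was most like Clec4e, a myeloid receptor gene (r = 0.639, rho = 0.389), Cxcl2, a neutrophil chemokine gene (r = 0.604, rho = 0.277), and Il1b (r = 0.597, rho = 0.185). The permutation p-values of rho were 1e-05, 0.00064 and 0.0226, against 1e-05 for each r, and r was 0.547, 0.507 and 0.474 without 2 mice. Of the 14 mice with high Mmp3, 8 were high for Clec4e, 9 for Cxcl2 and 10 for Il1b by the same measure, where 11, 17 and 14 of all mice were. These genes were picked by their correlation with Mmp3 in the same mice, so the overlap adds no separate evidence. The medians of Clec4e and Cxcl2, 2.86 and 2.59, also lay below the line. Mmp19 was most like Timp1 (0.701), Ddah1 (0.677) and Ifitm3 (0.670). Adamtsl3 was most like Ebf2 (0.820), Plce1 (0.820) and Ebf1 (0.815), and 0.802 to 0.809 without 2 mice.

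Adamtsl1, the punctin-1 gene, had a different kind of partner, and was singled out after its values were seen. Its level went with 0.542% of all genes by limma, 0 of the other 45 described among them, while 3 of its 45 pairs passed the permutation test adjusted over gene pairs. Of its 50 most correlated genes, 42 (84%) lie on its own chromosome, 4, where 5.91% of all genes measured lie. In the order of measured genes along the chromosome these 42 were at a median of 75.5 places away, 24 of them within 100 places and the farthest 492. The leading genes were Snapc3 (r = 0.621, rho = 0.629), 6 places before it, Cyp2j9 (0.596), 51 places after, and Dmac1 (0.563), with limma adjusted p from 5.2e-13 to 2.77e-10. They were positive and negative: Hook1 (-0.558) and Focad (-0.550) came next. Snapc3 gave 0.636, 0.611 and 0.619 on the 3 plates. The level of Adamtsl1 itself ran only from 4.71 over a median of 5.34 to 5.93. Its other probe set, which correlated with the one used at 0.40, had 3 of 50 on chromosome 4. Whether its probes read FVB/N and spretus alleles alike was not tested. With each array centred Adamtsl1 had 44 of 50, and with the outlier arrays kept 37. Of the other 45 genes none had more than 10 of 50 on its own chromosome, which was Adamts13, with 0 genes called by limma. With each array centred Adamts7 had 19 of 50, against 8 before, and Mmp16 12, against 8. Mmp16, also on chromosome 4, had 7 of its 8 within 100 places.

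**Figure D5:**
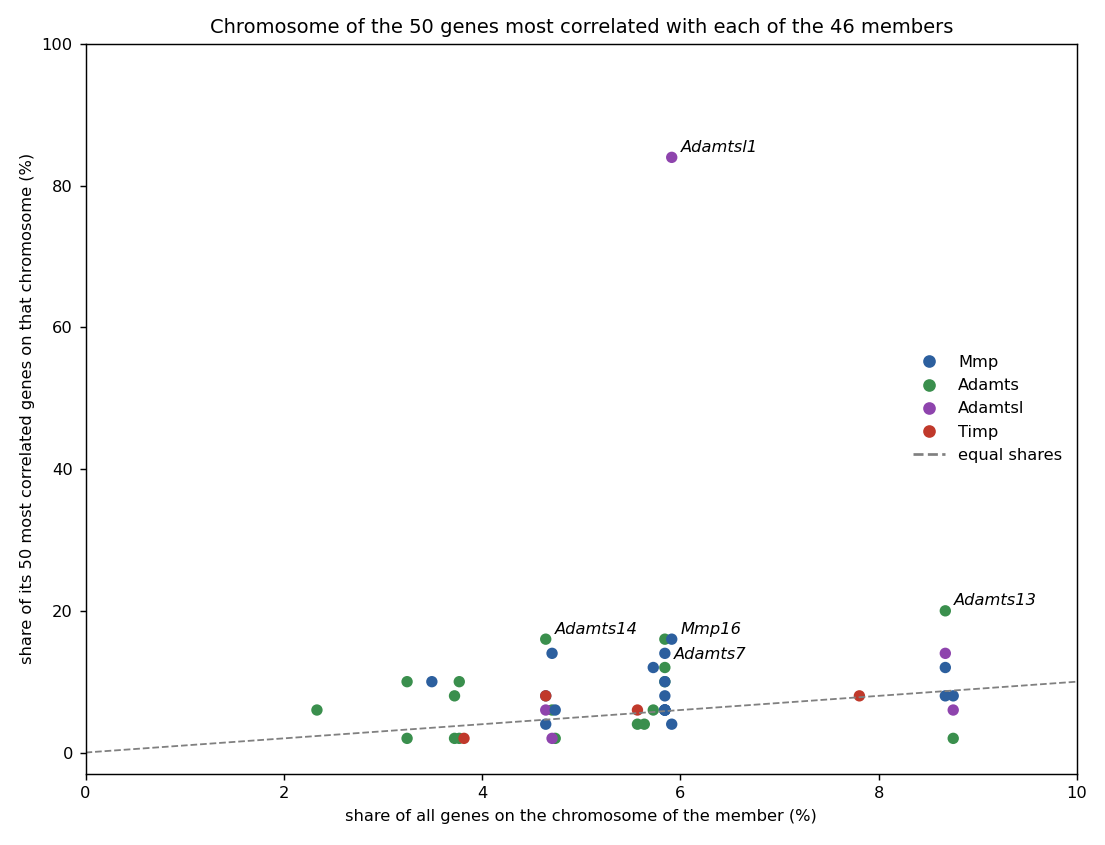
For each of the 46 genes, the share of its 50 most correlated genes that lie on its own chromosome (%) against the share of all measured genes on that chromosome (%), with a dashed line of equal shares. Adamtsl1 stands at 84% against 5.91%, and the other 45 genes at 20% or less on the deposited scale; with each array centred Adamts7 has 19 of 50.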

How the data were processed

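Tail skin RNA was measured on Affymetrix arrays, 1 for each mouse, as biotinylated cRNA per the labels' protocols. The deposited values are log2 levels per probe set, made by the authors with RMA, per the submitters' processing notes, whose version and any batch adjustment no source used here gives. Of 35556 probe sets, 171 were empty and 21201 had 1 gene symbol, updated through RefSeq (GRCm38.p6), so that by highest mean there were 18810 genes. The symbol of Mmp28 shares its probe set with another and was left out, and 1 further gene of the family is not reported here. Of the genes described, 5 had several probe sets. The median level per array lay between 4.67 and 4.89. Precision is limited by how many arrays there are. No 2 arrays correlated above 0.986 and all were counted separately.

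Groups came from the labels. A linear model of genotype, sex and plate was fitted by limma (version 3.58.1; R version 4.3.3) with a mean-variance trend, interactions being added in separate fits, and adjusted by Benjamini-Hochberg over 18810 genes at 0.05. Correlations were computed with numpy 2.4.6 and scipy 1.17.1 under Python 3.11.15, with pandas 2.3.3 for tables and matplotlib 3.10.9 for plots. Genes were named by rule: the Timp genes, those called or with the 3 smallest p, the 8 with the largest SD, 5 with a high and 5 with a low mean (used to choose names only), the leading pairs and, per list, the leading gene, and the 3 nearest partners of the Timp genes and of the 6 with the largest SD; others were chosen after their values were seen. The genes, lists and tests were chosen with earlier results of these data known.

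On simulated arrays the fits recovered 69 of 100 genes changed by 0.2 and 97 of 100 changed by 0.4 for genotype, and 85 and 98 of 100 for sex, with 8 of the unchanged genes called in each. For genotype by sex the numbers were 20 and 83 of 100. These counts are over all changed genes together. They give no recovery for single genes with a wide spread such as Mmp9 and Mmp3, whose genotype SE was 0.21 and 0.14. The correlation test recovered 14 of 15 planted pairs and called 0 of 1020 others. Alternatives covered the left-out arrays, normalization, a filter on low levels, probe set choice, array weights, the trend, plates, sexes and genotypes alone, and rank correlation. The replicate numbers only name the mice.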

Additional observations from a re-analysis of the deposited data

Results flagged for a closer look

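The 2 arrays that the labels mark as outliers lie outside the comparisons. In the first of them, a WT male on plate 2, 4 of the 46 genes fell outside the range of the arrays used: Adamts13 and Adamts19 above it and Adamts10 and Adamtsl1 below it. Over all genes the share was 6.65%. In the second, also a WT male on plate 2, 12 genes fell outside, all below, against 9.37% of all genes outside and 4.74% below. They were Adamts1, Adamts3, Adamts5, Adamts6, Adamts9, Adamts12, Adamtsl1, Adamtsl3, Mmp2, Mmp14, Timp2 and Timp3. Timp3 was at 7.90 where the lowest used array had 8.74, and Adamts5 at 5.53 where the lowest had 6.23.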

How the results depend on the processing

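The genotype, plate and 3 interaction counts stayed at 0 of 46 under every alternative run. The sex count of 3 ranged from 2 to 3 over 9 of 13 alternatives and was 0 on plate 1, plate 2 and plate 3 alone and 0 in HET mice alone, each a fit of fewer mice. Timp3 lost its call in these 4 only. Over its alternatives the difference was -0.22 to -0.11 for Timp3, -0.28 to -0.13 for Mmp11 and -0.27 to -0.03 for Mmp2. The Timp1 genotype difference reversed to 0.0153 on plate 2 alone (lowest -0.47, on plate 3 alone), and the cause was not tested. The filter on low levels gave no value for Mmp10, which it leaves out. The 247 gene pairs became 100 on plate 1 alone, 134 on plate 2 and 118 on plate 3, of which 96 to 118 were among the 247, and 215 to 261 otherwise. The 320 gene and list pairs became 177 on plate 1 alone and 156 on plate 3, and 218 to 327 otherwise. The median number of genes that varied with a gene, 1026.5, was 1210 with centred arrays and 1273.5 with the outlier arrays kept. No paired analysis was possible because the mice share no replicate number across groups that marks a pair. Plates of 46 to 56 arrays, 37 HET mice and dim probe sets limit what could be seen.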
